A study of Homo sapiens with 12 samples.

Results

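The 39 genes described here belong to the integrated stress response and the unfolded protein response, and they were taken as the rows of the gene count table whose symbol is on a list of ATF4, amino acid supply and endoplasmic reticulum (ER) chaperone genes. All 39 were found among the 26641 genes of the table. Polyadenylated RNA was sequenced from NCCIT cells, a human embryonal carcinoma line, carrying a doxycycline-inducible dCas9-VPR (a catalytically dead Cas9 fused to a transcriptional activator, used for CRISPRa) or dCas9-KRAB (the same protein fused to a repressor domain, used for CRISPRi). Each of the 6 lines also carried 1 of 3 guide arrays. The LTR5HS Sp array holds guides against LTR5HS, the long terminal repeat of a young endogenous retrovirus family, on the S. pyogenes scaffold that the fusions bind, and its libraries form the recruitment group. The LTR5HS Sa array holds LTR5HS guides on the S. aureus scaffold, which the fusions do not bind, and the nontarget Sp array holds guides without an LTR5HS target, and both form the control group. Every line had been given doxycycline for 4 days, so the controls also express their fusion, and every line is a population selected with puromycin and G418 after transposition. An effect of an array and a property of the line that carries it cannot be told apart. There were 2 replicates per line, labelled as independent biological replicates, which gives 2 recruitment and 4 control libraries with each fusion.

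The integrated stress response begins with kinases that phosphorylate the translation factor eIF2, which lowers protein synthesis in general and favours translation of ATF4. ATF4 then activates genes for amino acid synthesis, amino acid import and transfer RNA charging together with the factors DDIT3, ATF3, TRIB3 and CHAC1. The unfolded protein response is started in the ER by PERK, which feeds into ATF4, by IRE1 (the product of ERN1), which splices the XBP1 messenger RNA, and by ATF6, which is cleaved to release a transcription factor. XBP1 and ATF6 raise chaperones of the ER lumen such as HSPA5. ATF4 protein, XBP1 splicing and ATF6 cleavage are controlled after transcription and were not measured by these counts.

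Both responses are known to act through short promoter elements. Of the 36 members with a listed promoter 11 held a match to at least 1 of the 4 elements searched, and matches are shown here for some of the members described below. Sequences are from RefSeq on build GRCh38.p14 and were searched on both strands over the 250 bases before the start listed for each gene, and PSPH, SHMT2 and SLC7A11 had no listed promoter. Each line below gives the coding strand, 5′ to 3′, with the matched letters in capitals. The C/EBP-ATF response element, searched as TGATGNAA, was found in 4 of the 36 members and in 3.19% of 27305 promoters. ATF3 (chr1:212565205-212565234, plus strand), CHAC1 (chr15:40953251-40953280, plus strand, the element being on the other strand) and ASNS (chr7:97872458-97872487, minus strand) hold these copies.
ATF3: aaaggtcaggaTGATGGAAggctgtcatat
CHAC1: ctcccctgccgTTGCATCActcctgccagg
ASNS: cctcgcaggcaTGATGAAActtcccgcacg
The ER stress response element, CCAAT and CCACG separated by 9 bases, was found in 5 of the 36 members, which are XBP1, HSPA5, HSP90B1, CRELD2 and CALR, and in 0.0806% of all promoters. The copies of XBP1 (chr22:28800598-28800626, minus strand), HSPA5 (chr9:125241386-125241414, minus strand) and CALR (chr19:12938379-12938407, plus strand, the element being on the other strand) are as follows.
XBP1: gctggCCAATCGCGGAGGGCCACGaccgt
HSPA5: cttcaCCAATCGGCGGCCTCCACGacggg
CALR: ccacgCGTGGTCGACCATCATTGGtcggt
A compact form of this element, ATTGG and CCACG separated by 1 base, was found in 3 of the 36 members (HYOU1, SDF2L1 and HERPUD1) and in 0.0513% of all promoters. The unfolded protein response element core TGACGTGG was found in 1 of the 36 members and in 0.667% of all promoters. HYOU1 (minus strand) holds the compact form at chr11:119057371-119057399 and at chr11:119057265-119057293, and the core at the first of these positions, where it shares letters with the compact form.
HYOU1 farther from the start: gccccgtgaCGTGGTCCAATcccaggccg
HYOU1 nearer to the start: ggcctgggaCGTGGTCCAATgagtacgcg
A match is a description of letters and shows neither binding nor use of the element in these cells.

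Libraries held 13601701 to 69797411 counts, the deepest being nontarget Sp replicate 2 with dCas9-KRAB and the next deepest holding 24840708. Levels are CPM (the count of a gene relative to the library total) on 1 normalized scale for the 12 libraries, and 3 counts correspond to 0.0455 to 0.233 CPM, a floor that covers counting error only. Every member stood above it in every library, the lowest value being 5.02 CPM (CHAC1). The labelled cell type was checked with 8 embryonal carcinoma markers. All 8 were detected, but their summed level was 837 to 1506 CPM in the dCas9-VPR control libraries and 3871 to 4762 CPM in the dCas9-KRAB control libraries, and NANOG, a core pluripotency factor, stood at 1.05 to 5.01 CPM in the former and at 114 to 185 CPM in the latter. The difference was between the fusions, and it moves with each comparison of dCas9-VPR with dCas9-KRAB lines below. In bulk RNA, fewer cells of a type and less RNA per cell cannot be told apart. Per kilobase of gene length, the most abundant members of the dCas9-VPR control libraries were CALR (578 RPKM, which is CPM divided by the gene length in kilobases), PHGDH (383 RPKM) and HSP90B1 (278 RPKM), and the least abundant was VLDLR (2.1 RPKM).

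**Figure D1:**
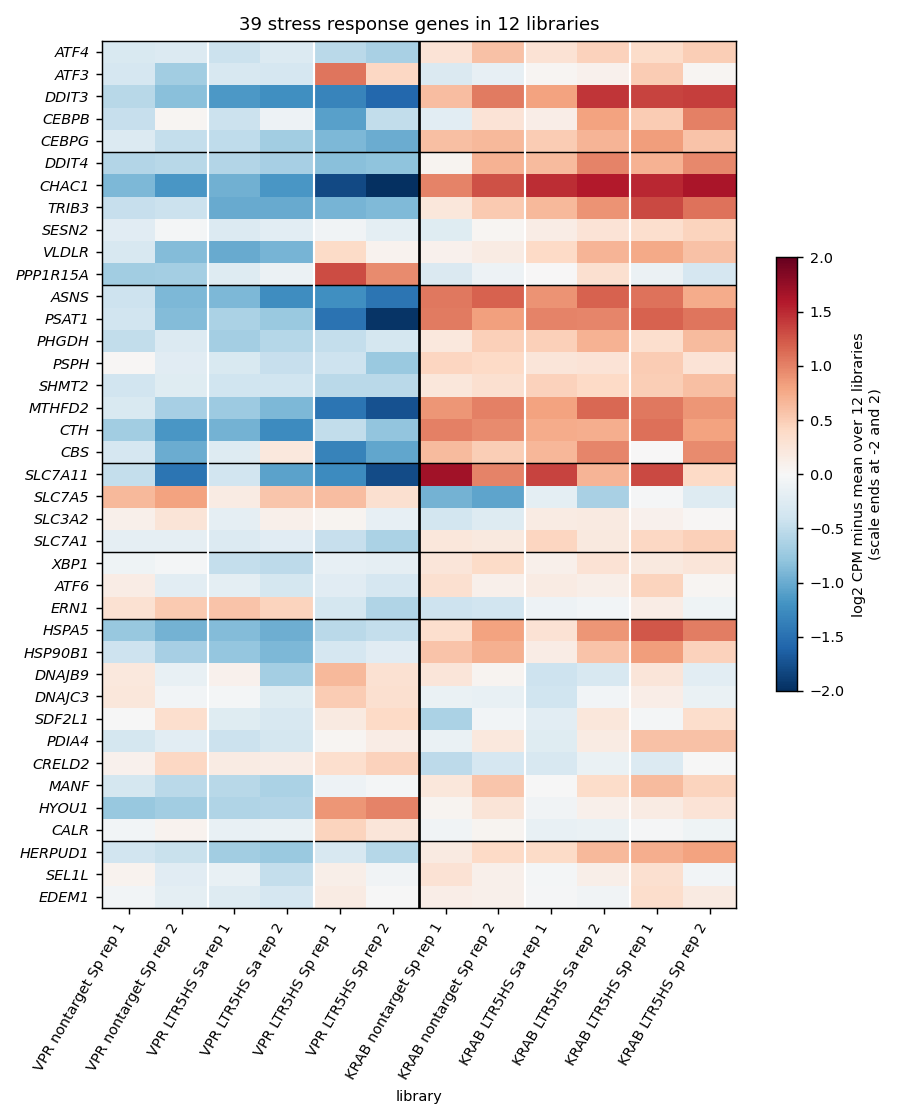
The 39 genes (rows, grouped by role) in the 12 libraries (columns), coloured by log2 CPM minus the gene's mean over the 12 libraries, with the colour scale ending at -2 and 2. The black line separates dCas9-VPR (left) from dCas9-KRAB (right) libraries and the white lines separate arrays; most rows are bluer on the left, and HYOU1, PPP1R15A and ATF3 are red in both dCas9-VPR LTR5HS Sp libraries.

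The first comparison asks which of these genes change when the activator is recruited to LTR5HS. With dCas9-VPR, 6 of 10 ER chaperones rose, and the ATF4 targets split, with ATF3, PPP1R15A and VLDLR higher and CHAC1, PSAT1 and MTHFD2 among those lower. Of the 39 members 9 were higher with recruitment and 6 were lower, where 15.7% of 16271 genes tested were higher and 12.3% were lower (edgeR's quasi-likelihood test, Benjamini-Hochberg adjusted p below 0.05, which holds for every call below). The higher members were HYOU1, PPP1R15A, ATF3, VLDLR, MANF, DNAJC3, PDIA4, CALR and HSPA5, and the lower ones CHAC1, PSAT1, MTHFD2, ERN1, CEBPG and SLC7A1. The median log2 fold change of the members was 0.05, beside -0.02 for all genes tested. Both recruitment libraries lay above all 4 control libraries for 12 members and below all of them for another 12, against 25.5% and 24.4% of all genes. Without either LTR5HS Sp library, where 1 recruitment library is left, fewer members passed in each direction, and so did fewer of all genes tested. The median log2 fold change of the members was -0.0004 without LTR5HS Sp replicate 1 and 0.04 without LTR5HS Sp replicate 2. ATF3, PPP1R15A, HYOU1 and PSAT1 kept their call under each alternative that was run.

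**Figure D2:**
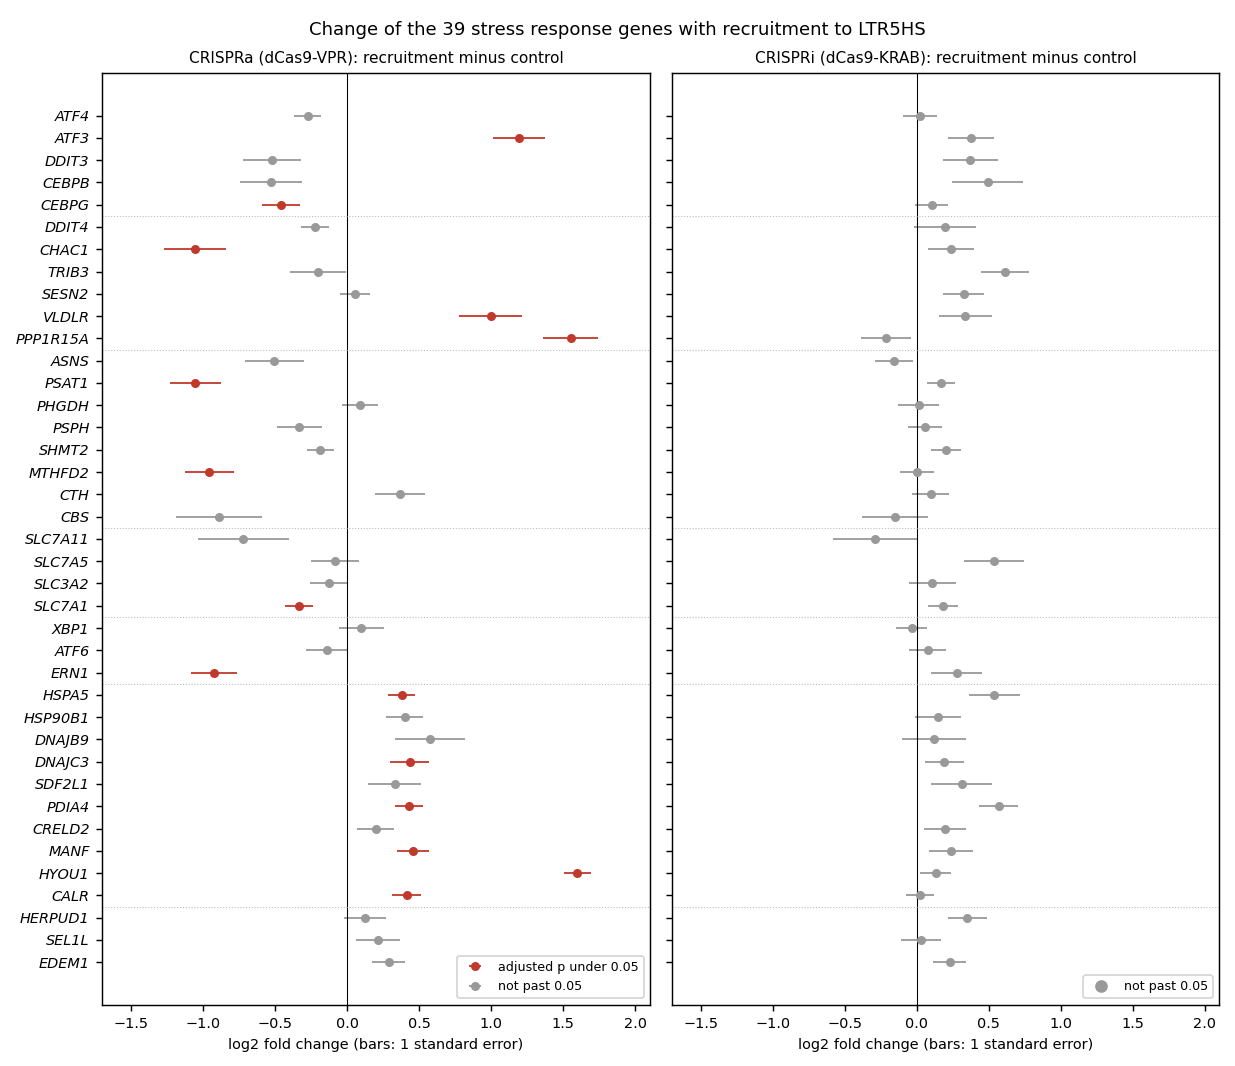
Log2 fold change of each of the 39 genes with recruitment to LTR5HS (horizontal axis, bars of 1 standard error) for dCas9-VPR (left) and dCas9-KRAB (right), 2 recruitment against 4 control libraries each. Red points have an adjusted p under 0.05; they run from -1.06 for CHAC1 to 1.60 for HYOU1 on the left, and the right panel has none.

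The 10 chaperones and folding factors of the ER gave the most uniform picture, with 6 higher and 0 lower. Their median log2 fold change was 0.42. At an unadjusted p under 0.05 edgeR gave 8 of them, all higher, where it gave 20.7% of all genes higher and 18.7% lower. HYOU1, an ER chaperone of the HSP110 family that also acts as a nucleotide exchange factor for HSPA5, was at 1831 and 1958 CPM with LTR5HS Sp, at 652 and 662 CPM with LTR5HS Sa and at 582 and 613 CPM with nontarget Sp. Its recruitment libraries stood well apart from all 4 controls, and the log2 fold change was 1.60 (SE 0.09, edgeR adjusted p = 1.34e-05), a 3.02-fold higher level. HYOU1 lies at chr11:119044188-119057205 (GRCh38.p14). HSPA5, the major Hsp70 chaperone of the ER lumen and the repressor of the 3 ER sensors, was at 927 and 970 CPM with LTR5HS Sp, at 739 and 684 CPM with LTR5HS Sa and at 802 and 699 CPM with nontarget Sp. The groups did not overlap, but the difference was small, with a log2 fold change of 0.38 (SE 0.09, edgeR adjusted p = 0.019). It missed the threshold without LTR5HS Sp replicate 1 (edgeR adjusted p = 0.0802) and without LTR5HS Sp replicate 2 (0.148). MANF, a secreted ER protein that binds HSPA5, was at 57.2 and 60.01 CPM with recruitment, against 41.9 and 39.6 CPM with LTR5HS Sa and 47.9 and 42.0 CPM with nontarget Sp. This is a log2 fold change of 0.46 (SE 0.11, edgeR adjusted p = 0.0168), and the call was lost without either LTR5HS Sp library and without LTR5HS Sa replicate 1.

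The other chaperones that rose did so to a like extent. The lectin chaperone CALR rose by 0.41 on the log2 scale, the disulphide isomerase PDIA4 by 0.43 and the HSPA5 cochaperone DNAJC3, which also inhibits PERK, by 0.43. The CALR call was lost without LTR5HS Sp replicate 1, the PDIA4 call without either LTR5HS Sp library and the DNAJC3 call in each fit without 1 library other than nontarget Sp replicate 1. HSP90B1, the Hsp90 of the ER, and the cochaperone DNAJB9 had every recruitment library above every control library without passing the test (log2 fold changes of 0.40 and 0.57, edgeR adjusted p = 0.0544 and 0.114). The HSPA5 partner SDF2L1 (0.33) and CRELD2 (0.20), a secreted factor induced by ER stress, did not pass either. HYOU1 was therefore the exception in size among the 10. Set against nontarget Sp alone, HYOU1 was the only ER chaperone past the threshold, whereas against LTR5HS Sa alone HSPA5, HSP90B1, DNAJC3, SDF2L1, PDIA4, MANF, HYOU1 and CALR were all past it. None of the 3 genes of ER-associated degradation passed against the pooled controls, though EDEM1 did so against LTR5HS Sa alone. HERPUD1 and SEL1L, parts of the ubiquitin ligase complex in the ER membrane, and EDEM1, a mannosidase-like factor that marks glycoproteins for disposal, had log2 fold changes of 0.12, 0.21 and 0.29.

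The sensors and their effectors did not rise with their targets. XBP1, the factor downstream of IRE1, was at 99.1 and 98.8 CPM with LTR5HS Sp, at 79.8 and 77.8 CPM with LTR5HS Sa and at 105 and 108 CPM with nontarget Sp. The recruitment libraries lay between the 2 control arrays. The log2 fold change was 0.10 (SE 0.15, edgeR adjusted p = 0.677), and it was 0.32 against LTR5HS Sa alone (edgeR adjusted p = 0.0302) and -0.10 against nontarget Sp alone (edgeR adjusted p = 0.625). ATF6 was at 82.2 and 75.8 CPM with LTR5HS Sp, at 83.8 and 75.2 CPM with LTR5HS Sa and at 107 and 83.3 CPM with nontarget Sp, and these values overlapped (log2 fold change -0.14, edgeR adjusted p = 0.506). ERN1, which encodes the IRE1 sensor itself, was lower, at 10.2 and 8.604 CPM with LTR5HS Sp, 19.3 and 17.6 CPM with LTR5HS Sa and 16.1 and 18.7 CPM with nontarget Sp. Both recruitment libraries fell well short of every control. The log2 fold change was -0.93 (SE 0.16, edgeR adjusted p = 0.0036), and the call was lost without LTR5HS Sp replicate 2.

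Among ATF4 and its partners, 1 of 5 was higher and 1 was lower. Both recruitment libraries lay below all controls for 4 of the 5, against 24.4% of all genes. ATF4 messenger RNA was at 326 and 302 CPM with LTR5HS Sp, at 350 and 394 CPM with LTR5HS Sa and at 382 and 393 CPM with nontarget Sp. The groups did not overlap, and the log2 fold change of -0.28 (SE 0.10) missed the threshold with edgeR (adjusted p = 0.0657) and passed it with DESeq2's Wald test (adjusted p = 0.0494). DDIT3 (CHOP), the proapoptotic factor of the response, was at 22.7 and 19.1 CPM with LTR5HS Sp, at 25.7 and 24.2 CPM with LTR5HS Sa and at 38.5 and 31.8 CPM with nontarget Sp, so that it too was at its lowest with recruitment. Its log2 fold change was -0.52 (SE 0.20, edgeR adjusted p = 0.0894). On build GRCh38 (GENCODE v44), 27.2% of the exon length of DDIT3 overlaps MARS1 (named MARS in the table) on the opposite strand, and the strand setting of the counting is not given in the sources used here. CEBPG, a dimer partner of ATF4, fell to 39.5 and 37.1 CPM with LTR5HS Sp from 51.7 and 45.7 CPM with LTR5HS Sa and 60.9 and 53.0 CPM with nontarget Sp. Its log2 fold change was -0.46 (SE 0.13, edgeR adjusted p = 0.031), and the call was lost without either LTR5HS Sp library, without LTR5HS Sa replicate 1 and without nontarget Sp replicate 2. CEBPB, another partner, had a log2 fold change of -0.53 (SE 0.22, edgeR adjusted p = 0.107).

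ATF3, a stress-induced repressor that is a target of ATF4, went the other way. It was at 152 and 95.7 CPM with LTR5HS Sp, at 57.6 and 57.0 CPM with LTR5HS Sa and at 57.1 and 44.7 CPM with nontarget Sp. The recruitment libraries differed from each other by more than the controls did, yet both lay above all of them, with a log2 fold change of 1.19 (SE 0.18, edgeR adjusted p = 0.00193). PPP1R15A (GADD34), the phosphatase subunit that removes the phosphate from eIF2, was at 100 and 78.2 CPM with LTR5HS Sp, at 33.9 and 37.4 CPM with LTR5HS Sa and at 24.9 and 25.4 CPM with nontarget Sp. This was the largest change among the ATF4-induced stress genes, a log2 fold change of 1.55 (SE 0.19, edgeR adjusted p = 0.000616) or 2.93-fold. VLDLR, a lipoprotein receptor whose gene is induced by ATF4, was at 16.9 and 13.5 CPM with LTR5HS Sp, at 6.38 and 6.75 CPM with LTR5HS Sa and at 10.3 and 7.10 CPM with nontarget Sp. Its log2 fold change was 1.00 (SE 0.22, edgeR adjusted p = 0.0105), and it was not called without LTR5HS Sp replicate 1.

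CHAC1, an enzyme that degrades glutathione and is among the most responsive targets of ATF4, moved against ATF3 and PPP1R15A. It was at 8.02 and 5.02 CPM with LTR5HS Sp, at 14.3 and 12.5 CPM with LTR5HS Sa and at 15.0 and 12.5 CPM with nontarget Sp. The 4 controls agreed closely and both recruitment libraries were below them, with a log2 fold change of -1.06 (SE 0.22, edgeR adjusted p = 0.00804), and the call was lost without LTR5HS Sp replicate 2. DDIT4, an inhibitor of mTORC1, the pseudokinase TRIB3 and SESN2, another mTORC1 inhibitor, had log2 fold changes of -0.22, -0.20 and 0.05 and did not pass. The ATF4-induced stress genes thus held 2 higher, 1 lower and 3 members not past the threshold.

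Genes for serine, one-carbon and amino acid synthesis were 0 higher and 2 lower of 8, with a median log2 fold change of -0.42. At an unadjusted p under 0.05 edgeR gave 4 of them, all lower, where it gave 18.7% of all genes lower. PSAT1, the aminotransferase of serine synthesis, fell to 67.5 and 48.4 CPM with LTR5HS Sp from 121 and 113 CPM with LTR5HS Sa and 144 and 104 CPM with nontarget Sp. No recruitment library reached a control, and the log2 fold change was -1.05 (SE 0.18, edgeR adjusted p = 0.00291). MTHFD2, the mitochondrial folate enzyme, fell to 103 and 84.8 CPM from 171 and 151 CPM with LTR5HS Sa and 230 and 178 CPM with nontarget Sp. This is a log2 fold change of -0.96 (SE 0.17, edgeR adjusted p = 0.00423), lost without LTR5HS Sp replicate 2. In GENCODE v44, 11.6% of the exon length of MTHFD2 overlaps SLC4A5 on the opposite strand. Of the other 6, ASNS (asparagine synthetase, log2 fold change -0.51), PSPH (-0.33), SHMT2 (-0.19) and CBS (-0.89) had negative values and PHGDH (0.09), the entry enzyme of serine synthesis, and CTH (0.37) had positive ones, and none passed. The CBS count is uncertain because the hg38 assembly holds a near-identical copy of that gene.

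Of the 4 amino acid carriers, 1 was lower. SLC7A1, the cationic amino acid transporter, had a log2 fold change of -0.34 (SE 0.10, edgeR adjusted p = 0.034), a call lost in each fit without 1 library other than nontarget Sp replicate 1. The cystine transporter SLC7A11 (-0.72), the leucine transporter SLC7A5 (-0.08) and their shared heavy chain SLC3A2 (-0.13) did not pass.

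**Figure D3:**
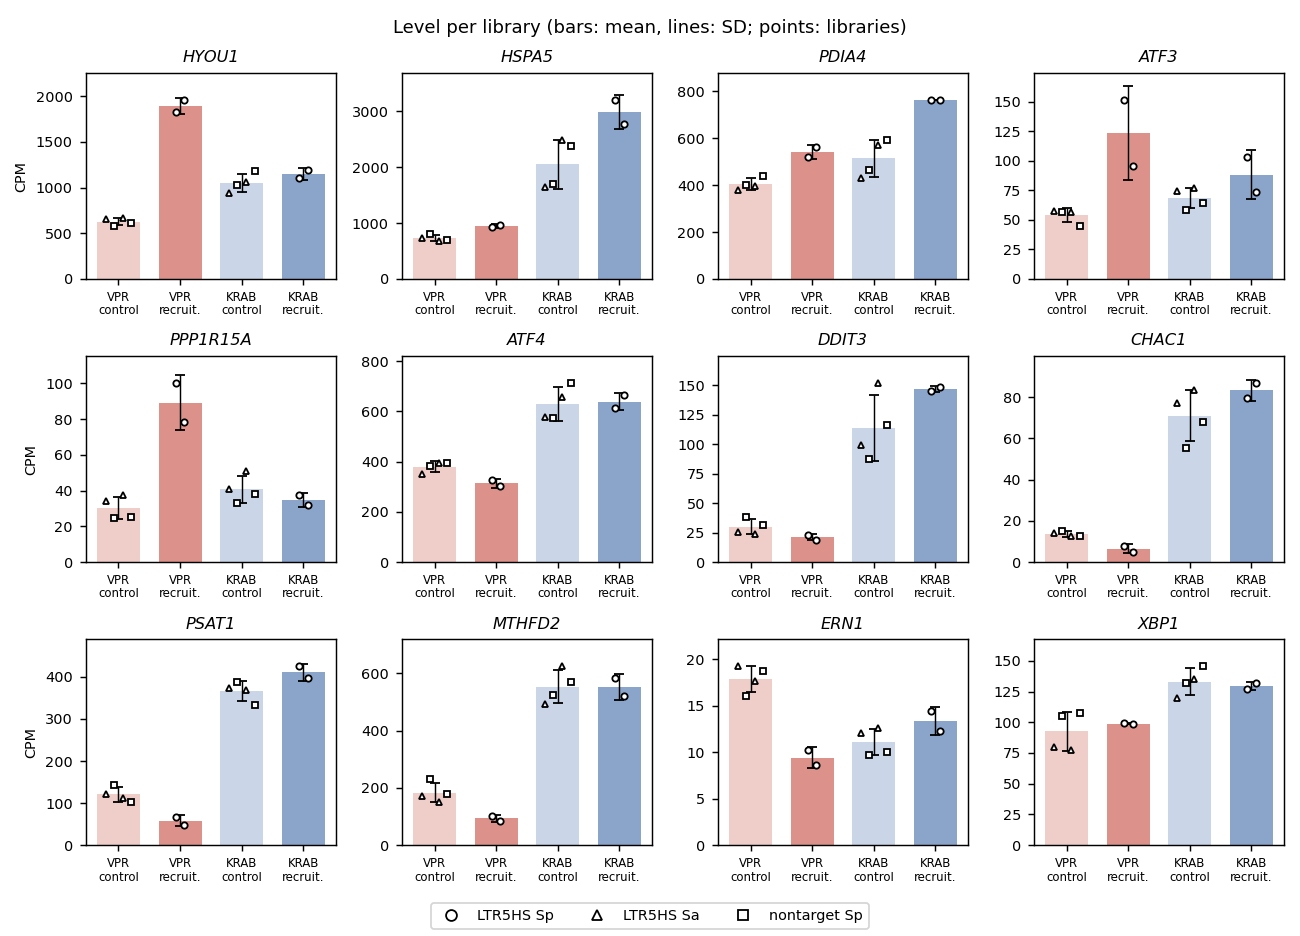
CPM of 12 of the genes (vertical axes, each from 0) in the dCas9-VPR and dCas9-KRAB control and recruitment groups; bars are group means, lines 1 SD and points libraries, with symbols for the 3 arrays. HYOU1, PPP1R15A and ATF3 stand highest in the dCas9-VPR recruitment group, whereas CHAC1, PSAT1, MTHFD2 and DDIT3 stand lowest there and several-fold higher in both dCas9-KRAB groups.

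Markers of other cell types also differed between these groups. With dCas9-VPR, the summed level of 3 mesoderm markers was 8.07 to 10.5 CPM with recruitment and 3.995 to 4.67 CPM in the controls. Among them EOMES passed (log2 fold change 4.29, edgeR adjusted p = 6.22e-05), MIXL1 (0.30) did not and T was too low to be tested. The sum of 4 endoderm markers was 10.1 to 10.7 CPM with recruitment and 4.19 to 6.89 CPM in the controls. There GATA6 passed (1.285, edgeR adjusted p = 0.00318), GATA4 (0.87) and FOXA2 (-1.19) did not and SOX17 was too low to be tested. The 8 embryonal carcinoma markers summed to 1032 to 1104 CPM with recruitment, within the range of the controls, but 2 of them passed in opposite directions. SOX2 was lower (log2 fold change -1.24, edgeR adjusted p = 0.00735) and L1TD1 was higher (1.62, edgeR adjusted p = 0.00274), each with both recruitment libraries outside the range of the controls. The 4 trophoblast markers (131 to 136 CPM with recruitment) were within the range of the controls as a sum, most of which is TFAP2A (-0.97, edgeR adjusted p = 0.0956). GATA3 was higher (1.48, edgeR adjusted p = 0.00617), and CGA was at 0 in both recruitment libraries. The 3 neural markers summed to 1.82 to 1.84 CPM with recruitment and 2.47 to 5.16 CPM in the controls. The part of these markers in the changes of the stress genes was not tested.

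The same comparison with dCas9-KRAB asks which members change when LTR5HS is repressed. No member passed the threshold, where 0.831% of 15520 genes were higher and 1.94% were lower. At an unadjusted p under 0.05 edgeR gave 7 members, or 17.9%, all higher with recruitment. It gave 13.6% of all genes (5.82% higher and 7.76% lower). DESeq2's Wald test called 2 members higher after adjustment (TRIB3 and PDIA4). Over all genes it called 250 higher and 466 lower, where edgeR called 129 and 301. The log2 fold change was positive for 34 of the 39, with a median of 0.18 beside 0.0006 for all genes, and the values ran from -0.29 to 0.61. Both recruitment libraries lay above all controls for 8 members and below all of them for 0, against 11.3% and 12% of all genes. The values were therefore mostly small and positive, and none passed edgeR's test after adjustment in the fit reported here. Among the cell type markers, the 4 trophoblast markers summed to 311 to 350 CPM with recruitment and 127 to 187 CPM in the controls (GATA3 and TFAP2A passed, and CGA was at 0 in both recruitment libraries), and their part in these values was not tested. The embryonal carcinoma markers summed to 3974 to 4046 CPM with recruitment, within the range of the controls, and none of the mesoderm, endoderm or neural markers that could be tested passed.

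HSPA5 was at 3196 and 2763 CPM with LTR5HS Sp, at 1649 and 2485 CPM with LTR5HS Sa and at 1703 and 2372 CPM with nontarget Sp. The controls themselves spread widely and stayed below both recruitment libraries, and the log2 fold change of 0.54 (SE 0.17) had an edgeR adjusted p of 0.188. ATF4 was at 614 and 664 CPM with LTR5HS Sp, 577 and 656 CPM with LTR5HS Sa and 573 and 712 CPM with nontarget Sp, and its log2 fold change was 0.02 (SE 0.12). DDIT3 was at 145 and 148 CPM with LTR5HS Sp, 99.2 and 152 CPM with LTR5HS Sa and 87.3 and 117 CPM with nontarget Sp. One LTR5HS Sa library exceeded both recruitment libraries, and the log2 fold change was 0.37 (SE 0.19). XBP1 was at 128 and 132 CPM with LTR5HS Sp, 120 and 135 CPM with LTR5HS Sa and 132 and 146 CPM with nontarget Sp. ATF6 was at 130 and 98.5 CPM with LTR5HS Sp, 108 and 104 CPM with LTR5HS Sa and 120 and 103 CPM with nontarget Sp. ERN1 was at 14.4 and 12.3 CPM with LTR5HS Sp, 12.1 and 12.6 CPM with LTR5HS Sa and 9.74 and 9.98 CPM with nontarget Sp. The groups overlapped for XBP1, ATF6 and ERN1, with log2 fold changes of -0.04, 0.07 and 0.28. PDIA4, named after its values were seen because it had the lowest adjusted p, was at 763 CPM in both LTR5HS Sp libraries, at 433 and 572 CPM with LTR5HS Sa and at 464 and 591 CPM with nontarget Sp. It lay above every control, with a log2 fold change of 0.57 (SE 0.14, edgeR adjusted p = 0.0666). PDIA4 passed edgeR's test without a filter, against LTR5HS Sa alone, with the arrays as separate groups and in 1 fit of all libraries. It missed the threshold against nontarget Sp alone and without any 1 control library. TRIB3, named for the same reason as the gene with the highest fold change, had a log2 fold change of 0.61 (SE 0.17, edgeR adjusted p = 0.111).

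Whether the 2 fusions changed a gene differently was tested by the interaction, the log2 fold change with dCas9-VPR minus that with dCas9-KRAB. It was higher for 3 of the 39 members and lower for 7, where 11.5% and 9.53% of 16673 genes were. The higher members were PPP1R15A (1.77, SE 0.28, edgeR adjusted p = 0.000579), HYOU1 (1.47, SE 0.14, edgeR adjusted p = 8.21e-06) and ATF3 (0.82, SE 0.27, edgeR adjusted p = 0.0466). The lower members with the largest differences were CHAC1 (-1.29, SE 0.27, edgeR adjusted p = 0.00394), PSAT1 (-1.22, SE 0.20, edgeR adjusted p = 0.000895) and ERN1 (-1.20, SE 0.23, edgeR adjusted p = 0.00204), followed by MTHFD2 (-0.96), CEBPG (-0.56), SLC7A1 (-0.52) and SHMT2 (-0.39). The calls of ATF3 and SHMT2 were lost in most of the fits that left out 1 library. That of CEBPG was lost without either LTR5HS Sp library with dCas9-VPR and, with dCas9-KRAB, without LTR5HS Sp replicate 1, LTR5HS Sa replicate 1 or nontarget Sp replicate 2, and that of SLC7A1 without LTR5HS Sp replicate 2 of either fusion. With dCas9-KRAB, HYOU1 was at 1103 and 1195 CPM with LTR5HS Sp, 938 and 1062 CPM with LTR5HS Sa and 1026 and 1177 CPM with nontarget Sp. PPP1R15A was at 37.5 and 32.2 CPM with LTR5HS Sp, 40.9 and 50.8 CPM with LTR5HS Sa and 33.2 and 37.9 CPM with nontarget Sp. CHAC1 was at 79.8 and 86.9 CPM with LTR5HS Sp, 77.4 and 83.6 CPM with LTR5HS Sa and 55.3 and 67.8 CPM with nontarget Sp. PSAT1 was at 426 and 397 CPM with LTR5HS Sp, 374 and 369 CPM with LTR5HS Sa and 389 and 333 CPM with nontarget Sp. For HYOU1, PPP1R15A and CHAC1 the recruitment libraries overlapped the controls, and for PSAT1 they lay above them by a small margin. MTHFD2 was at 584 and 521 CPM with LTR5HS Sp, 493 and 625 CPM with LTR5HS Sa and 523 and 568 CPM with nontarget Sp. CEBPG was at 132 and 109 CPM with LTR5HS Sp, 105 and 118 CPM with LTR5HS Sa and 112 and 115 CPM with nontarget Sp. ATF3 was at 103 and 73.7 CPM with LTR5HS Sp, 74.1 and 76.7 CPM with LTR5HS Sa and 58.7 and 64.1 CPM with nontarget Sp. These 3 overlapped as well. VLDLR, at 21.8 and 19.4 CPM with LTR5HS Sp and 13.7 to 20.7 CPM in the controls, did not pass the interaction test. MANF, at 95.1 and 83.2 CPM with LTR5HS Sp and 61.0 to 89.7 CPM in the controls, did not pass either. Of the 10 ER chaperones only HYOU1 passed. The interaction was -0.16 for HSPA5, -0.14 for PDIA4, 0.24 for DNAJC3 and 0.39 for CALR. HSPA5 and PDIA4 had log2 fold changes of 0.54 and 0.57 with dCas9-KRAB, against 0.38 and 0.43 with dCas9-VPR.

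The largest differences of these genes were between the control lines of the fusions, in which nothing is recruited to LTR5HS. The control libraries with dCas9-KRAB were higher than those with dCas9-VPR for 27 of the 39 members and lower for 3, where 28.3% of 16673 genes were higher and 27.1% were lower. The median log2 difference was 0.71, beside 0.01 for all genes. All 4 dCas9-KRAB control libraries lay above all 4 dCas9-VPR control libraries for 24 members and below them for 3, against 24.8% and 23.2% of all genes. These control libraries also enter the recruitment comparisons above, so the values of a gene in these comparisons are not independent. The 8 embryonal carcinoma markers were all higher in the dCas9-KRAB controls too, by 5.97 (NANOG), 3.82 (L1TD1), 3.76 (TDGF1) and 2.29 (POU5F1) on the log2 scale for the 4 named, and the summed level of the 4 endoderm markers was 0.388 to 1.34 CPM there against 4.19 to 6.89 CPM. The 3 mesoderm markers summed to 2.25 to 3.43 CPM there, the 4 trophoblast markers to 127 to 187 CPM (120 to 345 CPM with dCas9-VPR) and the 3 neural markers to 3.44 to 5.28 CPM. The part of these cell state differences in the stress genes was not tested, and the fusion and the line that carries it cannot be told apart. The 4 control libraries of a fusion are 2 replicates of each of 2 lines, which per the paper share 1 fusion-carrying progenitor. The p-values of this comparison therefore hold no spread between such progenitors.

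**Figure D4:**
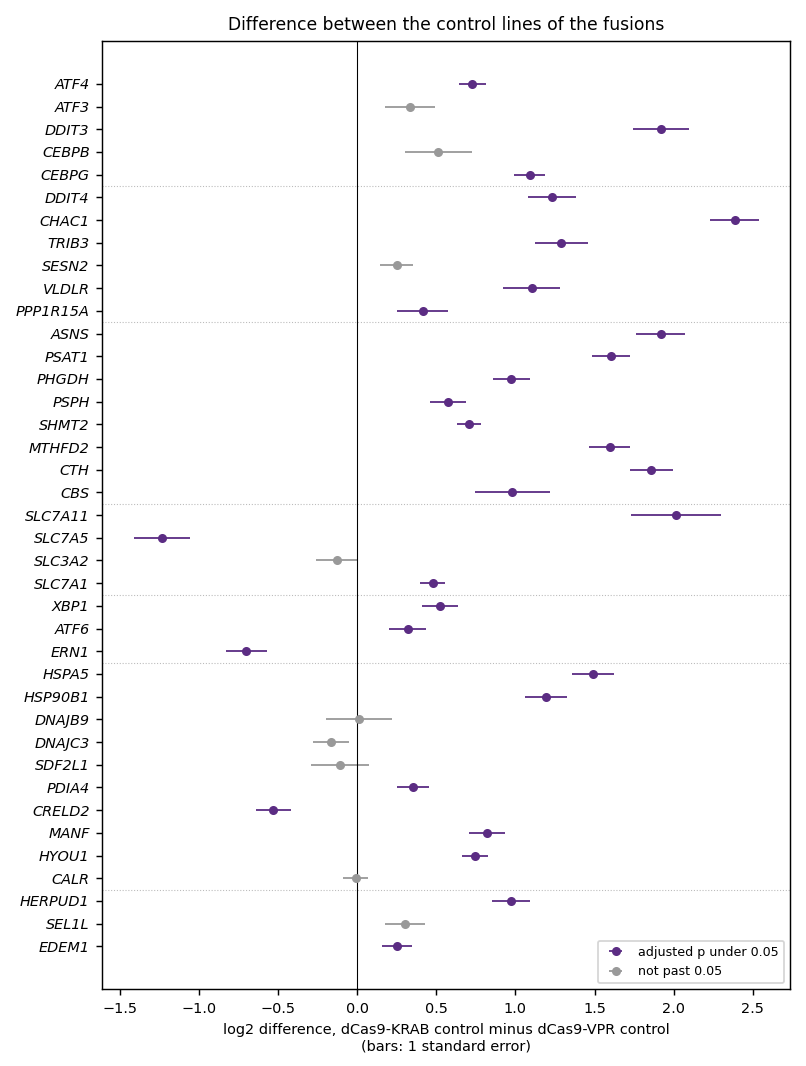
Log2 difference of each of the 39 genes between the 4 dCas9-KRAB control and the 4 dCas9-VPR control libraries (horizontal axis, dCas9-KRAB minus dCas9-VPR, bars of 1 standard error), with purple points at an adjusted p under 0.05. Purple points lie right of 0 for 27 genes, up to 2.39 for CHAC1, and left of 0 for SLC7A5, ERN1 and CRELD2.

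All 8 genes of serine, one-carbon and amino acid synthesis were higher in the dCas9-KRAB controls, with a median log2 difference of 1.29. They ran from PSPH (0.58) to ASNS (1.92), with CTH (1.86), PSAT1 (1.60) and MTHFD2 (1.60) next to ASNS. The ATF4-induced stress genes were higher for 5 of 6, led by CHAC1, which averaged 71.0 ± 12.3 CPM (SD, n = 4) against 13.6 ± 1.27 CPM (SD, n = 4). This is a 5.22-fold difference (edgeR adjusted p = 1.88e-07). DDIT3 averaged 114 ± 28.2 CPM (SD, n = 4) against 30.04 ± 6.52 CPM (SD, n = 4), a 3.78-fold difference (edgeR adjusted p = 2.59e-06), and ATF4 629 ± 67.0 against 380 ± 20.4 CPM (SD, n = 4 each), a 1.66-fold difference (edgeR adjusted p = 1.54e-05). ATF3, which rose with recruitment of dCas9-VPR, was among the members that did not pass here (0.34, edgeR adjusted p = 0.0849).

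The carriers split. SLC7A11 was 4.04-fold higher and SLC7A1 1.39-fold higher, whereas SLC7A5 fell by 1.23 on the log2 scale from the dCas9-VPR to the dCas9-KRAB controls; it averaged 1093 ± 191.5 CPM in the former and 465 ± 129 CPM in the latter (SD, n = 4 each). In the ER, HSPA5 averaged 2052 ± 437 against 731 ± 52.7 CPM (SD, n = 4 each), a 2.81-fold difference (edgeR adjusted p = 1.6e-06). HSP90B1 was 2.29-fold, MANF 1.76-fold, HYOU1 1.68-fold and PDIA4 1.28-fold higher, while CRELD2 was lower (log2 difference -0.53) and DNAJB9, DNAJC3, SDF2L1 and CALR did not pass. Among the sensor genes, XBP1 (0.52) and ATF6 (0.32) were higher and ERN1 (-0.70) was lower. The calls of ATF6, EDEM1 and PPP1R15A were lost in several of the fits that left out 1 library. Of the 6 members that were lower with recruitment of dCas9-VPR, 5 were higher in the dCas9-KRAB than in the dCas9-VPR controls (CEBPG, CHAC1, PSAT1, MTHFD2 and SLC7A1), and so were 6 of the 9 that were higher with it (VLDLR, PPP1R15A, HSPA5, PDIA4, MANF and HYOU1). Both counts are to be read beside the 27 of all 39 members that were higher there. These counts share the dCas9-VPR control libraries and are given side by side only.

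The 2 control arrays were compared within each fusion. With dCas9-VPR, 0 members were higher and 1 was lower with LTR5HS Sa than with nontarget Sp, where 1.90% and 2.61% of 16271 genes were, and 7 members (17.9%) had an unadjusted p under 0.05, where 18.8% of all genes did. The member was TRIB3, at 39.9 and 40.1 CPM against 58.6 and 60.03 CPM, with a log2 difference of -0.55 (SE 0.11, edgeR adjusted p = 0.0318). The call was lost in each fit without 1 library except that without nontarget Sp replicate 1. The 39 members had 6 positive and 33 negative values, with a median of -0.15 against -0.002 for all genes. With dCas9-KRAB, edgeR called 0 members in either direction, where 0.258% and 0.309% of 15520 genes were higher and lower. There 8 members (20.5%) had an unadjusted p under 0.05, where 9.91% of all genes did, and DESeq2's Wald test called 2 higher (SLC7A5 and SLC3A2).

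Other genes of the same pathways were counted on lists of genes that are not members. The shares of all genes with dCas9-VPR were 15.7% higher and 12.3% lower. At an unadjusted p under 0.05 with edgeR they were 20.7% and 18.7%. With dCas9-VPR, of 14 tested further ATF4 targets 0 were higher (2 at an unadjusted p under 0.05 with edgeR) and 7 were lower, with a median log2 fold change of -0.53. The lower ones with the largest change were GDF15, a stress-induced cytokine (-1.71, edgeR adjusted p = 0.015), ALDH1L2, a mitochondrial folate enzyme (-1.23, edgeR adjusted p = 0.0205) and SLC6A9, a glycine transporter (-0.73, edgeR adjusted p = 0.0457). The calls of GDF15 and ALDH1L2 were lost without LTR5HS Sp replicate 2, and that of SLC6A9 in each fit without 1 library other than LTR5HS Sa replicate 1. GDF15 was at 1.84 and 0.802 CPM with LTR5HS Sp and at 3.10 to 5.42 CPM in the controls. Among 20 cytosolic aminoacyl-tRNA synthetases 1 was higher (WARS) and 3 were lower, AARS (-0.52), SARS (-0.46) and YARS (-0.41). The AARS call was lost without LTR5HS Sp replicate 1. The SARS call was lost against LTR5HS Sa alone, without LTR5HS Sp replicate 2 and without nontarget Sp replicate 2, and the YARS call against LTR5HS Sa alone and without any 1 of the LTR5HS Sp or nontarget Sp libraries. Of the 15 sensors and eIF2 factors 0 were higher and 1 was lower, EIF2B3, a subunit of the exchange factor of eIF2 (-0.44, edgeR adjusted p = 0.0131), and edgeR gave 2 of the 15 an unadjusted p under 0.05. The EIF2B3 call was lost without either LTR5HS Sp library. The 18 tested further genes of ER folding and degradation held 4 higher and 2 lower, which named by size were ERO1B (-1.03) and ERO1A (-0.85), oxidases that drive disulphide formation, and EDEM2 (0.85), a mannosidase of ER-associated degradation. The ERO1A call was lost without LTR5HS Sp replicate 2, and the ERO1B call without either LTR5HS Sp library and without LTR5HS Sa replicate 1.

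Of 9 tested heat shock genes 0 were higher and 3 were lower, where 15.7% and 12.3% of all genes were. At an unadjusted p under 0.05 edgeR also gave 0 higher. The lower genes were HSPD1 (-0.69), BAG3 (-0.50) and HSP90AA1 (-0.45). The BAG3 call was lost against nontarget Sp alone, without either LTR5HS Sa library and without LTR5HS Sp replicate 2, and the HSP90AA1 call without LTR5HS Sp replicate 1. Of 8 targets of the oxidative stress factor NRF2, 3 were higher and 1 was lower, the higher ones being HMOX1 (1.04), NQO1 (0.71) and PGD (0.71), and the NQO1 call was lost without LTR5HS Sp replicate 1. With dCas9-KRAB, where 0.831% of all genes were higher and 1.94% were lower, these 6 lists together held 1 gene past the threshold. It was EDEM2, at 22.2 and 20.7 CPM with LTR5HS Sp and 33.4 to 39.1 CPM in the controls (log2 fold change -0.76, edgeR adjusted p = 0.0111), a call that was lost without either LTR5HS Sp library. With dCas9-VPR, EDEM2 was at 54.9 and 50.3 CPM with LTR5HS Sp and 26.5 to 30.9 CPM in the controls (log2 fold change 0.85, edgeR adjusted p = 0.000954). It was thus higher with the activator and lower with the repressor at LTR5HS, with an interaction of 1.61 (SE 0.16, edgeR adjusted p = 1.04e-05), whereas no member passed the threshold with both fusions. Between the control lines, 28.3% of all genes were higher with dCas9-KRAB and 27.1% were lower. Of the 20 synthetases 15 were higher and 1 was lower, and of 15 further ATF4 targets 7 were higher and 2 were lower.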

How the data were processed

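Gene counts of 12 libraries were analysed. Per the submitters' processing notes, reads were handled with CASAVA 1.8, cutadapt 1.8.1, HISAT2 2.1.0 (build hg38) and featureCounts 1.4.6-p2. The table deposited by the authors gives unnormalized counts for each gene in each library. The annotation and strand setting are not given in the sources used here. The gene length deposited by the authors, in bp as featureCounts writes it, was used only for RPKM.

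The 39 members and all gene lists were chosen with earlier results of these data known, so that no count over them is independent evidence. Within each fusion, the LTR5HS Sp libraries formed the recruitment group and those of the other arrays were pooled as control. The whole table was fitted in R 4.3.3 with edgeR 4.0.16 (filterByExpr, TMM, quasi-likelihood test); p-values were adjusted by Benjamini-Hochberg and called at 0.05. The interaction and the control lines of the fusions were tested in 1 fit of the 12 libraries, and the control arrays in fits with 3 groups. P-values rest on the spread within groups, which for the pooled controls includes differences between the control lines. In the fits with 3 groups it is the spread between replicates. Each recruitment group holds replicates of a single line, so no spread between recruitment lines enters. The control lines of a fusion share 1 progenitor per the paper, so no spread between progenitors enters the comparison of the fusions. All 39 members passed the filter in every comparison. CPM uses TMM over the 12 libraries, whose depth and floor are given with the results.

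Values in every library are given for ATF4, DDIT3, HSPA5, XBP1, ATF6 and ERN1, for the up to 10 members past the threshold with the largest change in each fusion, for members past it with both fusions and for the up to 5 with the largest interaction past its threshold. At most 3 genes per other list and fusion are named, and further genes were named after their values were seen. Alternatives were DESeq2 1.42.0 (Wald test, size factors), other filters, each control array alone, 3 separate arrays, 1 fit of all libraries, a replicate block, a threshold of 0.01 and leaving out each library. The pipeline was tested on simulated data. Repeat transcripts and ChIP-seq were not analysed here.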

Additional observations from a re-analysis of the deposited data

Results flagged for a closer look

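Among the 4 control libraries of each fusion, 3 of 78 tests of single genes (39 genes in 2 groups) had 1 library far from the others by Dixon's ratio at the 95% level, which chance alone gives in about 1 of 20. ATF3 was at 44.7 CPM in dCas9-VPR nontarget Sp replicate 2 and at 57.0 to 57.6 CPM in the other control libraries. SHMT2 was at 314.7 CPM in the same library and at 280 to 286 CPM in the others. SLC7A1 was at 175.8 CPM in dCas9-KRAB LTR5HS Sa replicate 1 and at 150 to 154 CPM in the others.

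The changes of 10 members differed between the fusions by the interaction test (edgeR's quasi-likelihood test, Benjamini-Hochberg). The difference of log2 fold changes, dCas9-VPR minus dCas9-KRAB, was 1.77 for PPP1R15A, 1.47 for HYOU1 and 0.82 for ATF3. It was -1.29 for CHAC1, -1.22 for PSAT1, -1.20 for ERN1, -0.96 for MTHFD2, -0.56 for CEBPG, -0.52 for SLC7A1 and -0.39 for SHMT2. The control libraries enter both this test and the comparison of the fusions' control lines, in which ATF3 alone of the 10 did not pass the threshold, and the part of that difference was not tested.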

How the results depend on the processing

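Under the alternatives, the members called higher with dCas9-VPR recruitment numbered 4 with nontarget Sp alone as control, where 9 were reported. All genes called higher numbered 2613 there, where 2552 were reported. At a threshold of 0.01 there were 3 higher members and 1667 higher genes. Leaving out 1 control library gave 7 to 12 higher members (12 without nontarget Sp replicate 1) and 4 to 6 lower. Over all genes these fits gave 2185 to 2548 higher and 1552 to 2078 lower. Fewer members and fewer of all genes passed without either LTR5HS Sp library. With 1 recruitment library left, that library is assumed to vary like the controls. With dCas9-KRAB the count of higher members, 0 as reported, was 2 with DESeq2's Wald test, 1 without a filter and 1 against LTR5HS Sa alone. It was 2 against nontarget Sp alone, 3 with the arrays as separate groups and 1 in the fit of all 12 libraries. Over all genes, 129 were higher as reported and 250, 175, 129, 218, 213 and 135 in these fits, in the same order. Leaving out 1 control library gave 0 to 1 higher members and 78 to 129 higher genes. The interaction gave 4 lower members against LTR5HS Sa alone, 12 against nontarget Sp alone, 4 at a threshold of 0.01 and 4 to 9 without 1 library. For the dCas9-VPR control arrays, 0 to 1 members were higher and 0 to 2 lower without 1 library, with 2 lower by DESeq2 and 0 at 0.01. For the dCas9-KRAB control arrays, DESeq2 and the unfiltered fit gave 2 higher each. The sign turned for values near 0. XBP1 was at -0.10 (dCas9-VPR) and -0.0083 (interaction) against nontarget Sp alone. With dCas9-KRAB, XBP1 was at 0.028 against LTR5HS Sa alone and -0.082 to 0.011 without 1 library, ATF4 at -0.011 against nontarget Sp alone and -0.037 to 0.088 without 1 library, and ATF6 at -0.15 to 0.26 without 1 library. Where the construction of an alternative (fewer libraries, a stricter threshold) does not show it, the cause was not tested. Every member stood above the counting floor in every library.

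The labels name no shared culture or batch behind a replicate number. The replicate differences of the arrays correlated across genes at 0.32 to 0.44 within dCas9-VPR, 0.19 to 0.51 within dCas9-KRAB and 0.05 to 0.50 between fusions, where 7 of 9 pairs were above 0.1. With the replicate block, dCas9-VPR gave 11 higher and 8 lower members (16.7% and 13.8% of all genes), dCas9-KRAB 1 higher (1.19%) and the interaction 3 higher and 8 lower (13.0% and 11.3%). The block moved the control arrays most, over all genes as well as members. With dCas9-VPR it gave 2 higher (PPP1R15A and CBS) and 6 lower members (DDIT3, TRIB3, ASNS, MTHFD2, XBP1 and SDF2L1), where the share of all genes went from 1.90% to 9.18% higher and from 2.61% to 10.1% lower. With dCas9-KRAB it gave 2 higher members, where the share of all genes went from 0.258% to 1.62% higher.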
